A study of Mus musculus with 24 samples.

Results

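The genes described here are those whose mouse symbol has the pattern Psma, Psmb, Psmc, Psmd, Psme, Psmf or Psmg followed by a number, the naming series of the proteasome. The pattern found 50 genes among the 17953 genes of both expression tables, 49 in the table of mouse embryonic stem cells (mESC) and 49 in that of neural progenitor cells (NPC). Psma8 was listed only for mESC and Psmb11 only for NPC. Psmc3ip and Psme2b carry such a symbol but are not subunits and were counted apart, which left 47 proteasome genes per cell type. A gene was tested where at least 2 libraries of the cell type reached 1 CPM, the read count scaled to library size; all 47 genes passed in mESC and 46 of 47 in NPC. Psmb11, a subunit of the thymus, did not pass, with 0 to 0.149 CPM.

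The study sequenced total RNA of mESC and of NPC differentiated from mESC, with 2 libraries for each of 6 Htt genotypes per cell type, 24 libraries in all. The groups were wild type (WT), Htt knockout (KO) and 4 lines heterozygous for an Hdh CAG knock-in allele of Htt, called Q20, Q50, Q92 and Q111 after their 20, 50, 92 or 111 repeats. The third length is 92 in the sample titles and 89 in the growth protocol. mESC were grown on an irradiated CF-1 embryonic fibroblast feeder layer with leukemia inhibitory factor, and NPC on laminin with EGF and FGF. The series calls the 2 libraries of a group biological samples without saying how they differ. The p-values of comparisons between 2 groups thus measure the spread between such libraries, which may be technical. The fits of a slope on repeat length have no term for line and take each library as 1 point. Their p-values also take in how far the line means lie from a straight line. The labels give 1 line per genotype, so a genotype and its line cannot be told apart. The parent line of WT and KO is not given in the labels. The series title sets repeat length against splicing; the tables used here hold levels per gene.

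The proteasome degrades proteins tagged with ubiquitin. Its barrel-shaped core is built from outer alpha rings (Psma genes) and inner beta rings (Psmb genes), of which Psmb5, Psmb6 and Psmb7 encode the cutting subunits. Interferon replaces those with the immune subunits Psmb8, Psmb9 and Psmb10, which favour peptides for antigen presentation. A regulatory cap of ATPases (Psmc) and other subunits (Psmd) recognises and unfolds the substrate, Psme proteins are alternative caps, and Psmg, Psmd5, Psmd9 and Psmd10 proteins help to assemble the particle. Cells short of proteasome activity raise subunit genes together through the transcription factor NRF1 (Nfe2l1). Mutant huntingtin is itself a proteasome substrate, which has made the proteasome a recurrent topic in Huntington's disease.

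Htt in the 2 libraries labelled KO was 139 and 68.5 CPM in mESC against 124 and 113 in WT, and 100.1 and 94.9 in NPC against 137 and 177 in WT. The first mESC library labelled KO was thus not below WT in Htt. Depth was 58546211 to 81502284 recovered reads per mESC library and 48525333 to 118038952 per NPC library. Pou5f1, which defines pluripotent cells, was 280 to 880 CPM in mESC; in NPC it was 90.1 and 87.4 CPM in the Q20 libraries and at most 0.405 in the other 10. Summed over the 5 of 7 pluripotency markers in the NPC table, the Q20 libraries held 108 and 106 CPM and the others 4.72 to 26.5. Most of the Q20 sums was Pou5f1, followed by Nanog at 12.996 and 13.703 CPM, against at most 1.6291 elsewhere. Tdgf1 was also higher in Q20 but low, at 0.68335 and 0.56826 CPM. Esrrb and Klf4 were not raised in Q20. Esrrb was 0.72062 and 0.75053 CPM there and 0.72295 to 7.7391 elsewhere. Klf4 was 3.1931 and 3.8277 CPM there and 2.1852 to 18.48 elsewhere. The 8 NPC markers summed to 3943 and 4154 CPM in Q20 and to 5423 to 9365 elsewhere. Q20 is the reference of the NPC comparisons among knock-in lines below.

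Proteasome genes were among the most abundant transcripts of both cell types. On the scale of CPM per kilobase of exon, the median over libraries placed 35 of 47 genes at or above the 90th percentile of all genes in mESC and 32 of 47 in NPC. In mESC the highest levels per kilobase were those of the ATPase Psmc5 (210 CPM per kilobase), the alpha subunits Psma5 (184) and Psma6 (165) and the cap scaffold Psmd2 (165). In NPC they were Psmd2 (139.9), the beta subunit Psmb2 (136), Psma5 (125) and Psmc5 (124). Among the roles, the median alpha gene had 90.1 CPM per kilobase in mESC and 58.4 in NPC, and the median non-ATPase cap gene 68.1 and 52.4. The immune subunits Psmb8 and Psmb9 were the lowest genes that passed the filter in both cell types, with 0.838 and 0.905 CPM per kilobase in mESC and 0.267 and 0.195 in NPC. The tables of both cell types were scaled separately, so these levels were not tested against each other.

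The range over libraries differed among members. The highest library was less than 2 times the lowest for 26 of 47 genes in mESC and 29 of 46 in NPC. It was 2 times or more for the other 21 genes in mESC and 17 in NPC. The shares over all genes are not given. Replicates differed in mESC: the median gene was higher in replicate 2 than in replicate 1 in all 6 genotypes, by 0.10 (log2) in Q20 to 0.56 in KO. The genes higher in replicate 2 were 26 of 47 in Q20 and 39 of 47 in KO. In NPC the median difference was 0.54 in WT, where 42 of 46 genes were higher in replicate 2, and 0.26 in KO; in the knock-in lines it lay between -0.03 in Q111 and 0.13 in Q50.

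**Figure D1:**
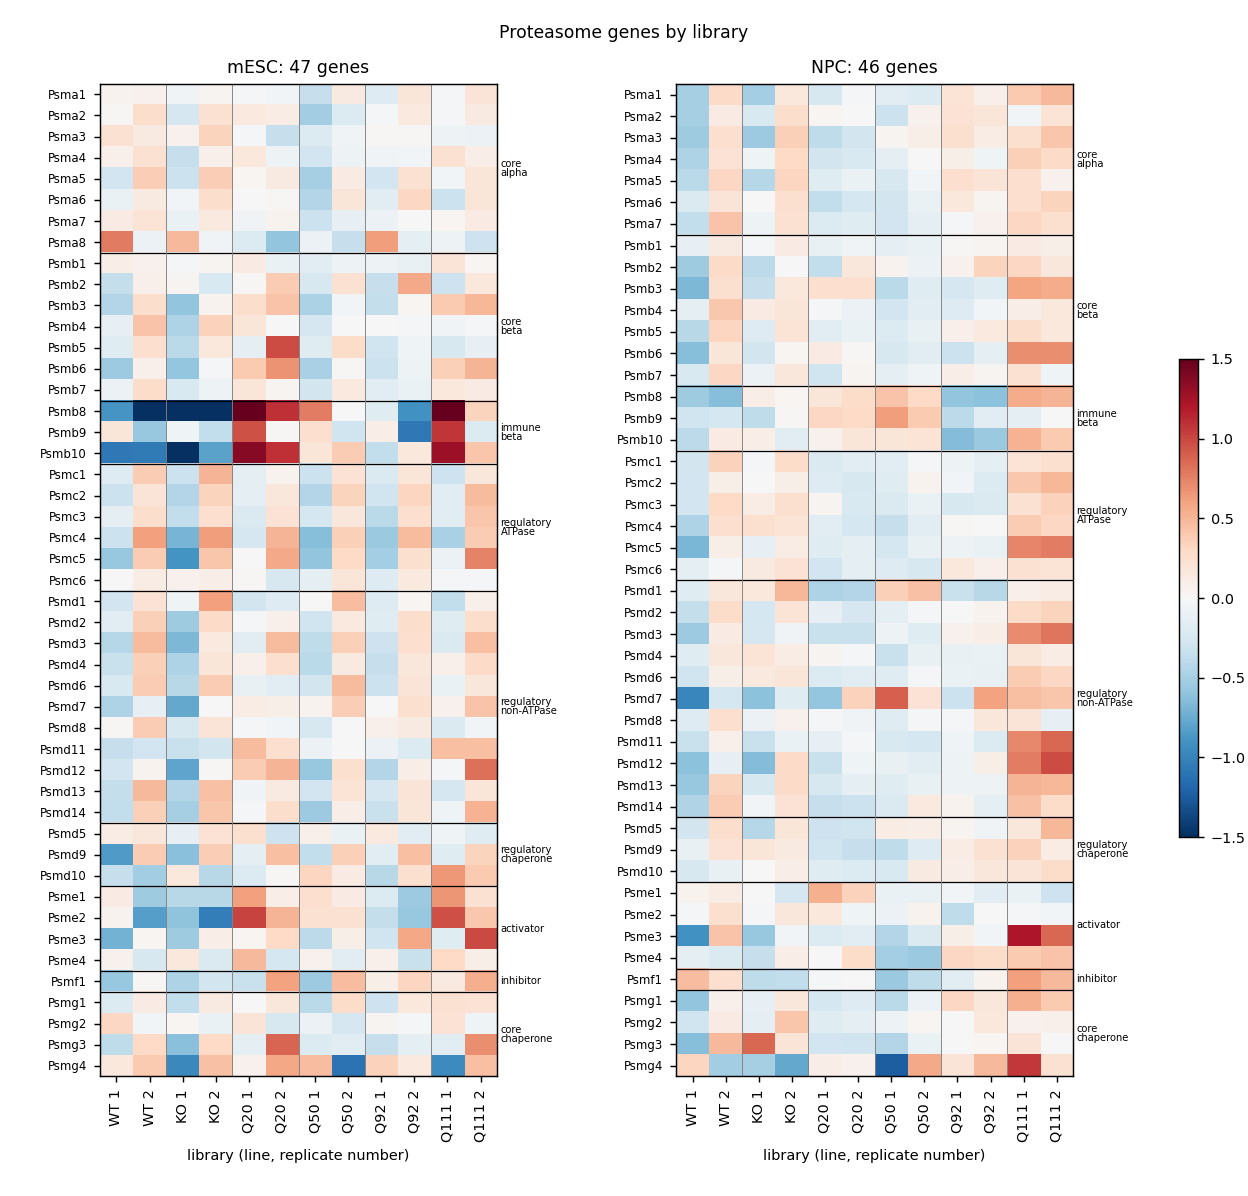
Heat map of log2(CPM + 1) of each proteasome gene (rows, grouped by role) in each library (columns, line and replicate number), as the deviation from that gene's mean over the 12 libraries of its cell type; colours end at 1.5 either way. In NPC both Q111 columns are mostly red and WT replicate 1 mostly blue; in mESC the immune subunits Psmb8, Psmb9 and Psmb10 carry the widest range.

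Between Q111 and Q20 NPC, proteasome genes were higher across nearly every role. The log2 change was above 0 for 43 of 46 genes, with a median of 0.48 against 0.03 over all 13206 genes tested, and both Q111 libraries exceeded both Q20 libraries for 37 of the 43 members outside the immune group, where 40.3% of all genes had both Q111 libraries higher. By limma on log2(CPM + 1), with Benjamini-Hochberg adjustment over all genes and a call at an adjusted p under 0.05, 12 of 46 members rose and 1 fell. The share of members called was 28.3%, and the share of all genes called was 28.3% as well; in the upward direction 26.1% of members were called against 12.2% of all genes, and 16.1% of all genes were called lower.

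The regulatory cap held most of the calls, 5 of 11 non-ATPase subunits and 3 of 6 ATPases. Psmd3, a scaffold subunit of the lid, was 151 and 151 CPM in Q20 and 311 and 334 in Q111, a rise of 1.09 (log2, SE 0.20, adjusted p by limma 0.00506). The Q111 libraries stood above all 10 other NPC libraries, which reached at most 207 CPM. Psmd12, another lid subunit, was 117 and 142 CPM in Q20 and 253 and 293 in Q111 (1.07, SE 0.29, adjusted p by limma 0.0281). Psmd11, a lid subunit whose level sets proteasome assembly in stem cells, was 79.8 and 85.6 CPM in Q20 and 144 and 159 in Q111 (0.86, SE 0.16, adjusted p by limma 0.0063). For these 3 subunits the mean in Q111 was 2.14, 2.11 and 1.83 times that in Q20, with no overlap between groups. The ATPase Psmc5 was 164 and 170.0 CPM in Q20 and 311 and 317 in Q111 (0.91, SE 0.22, adjusted p by limma 0.0193), and Psmc2 132 and 129 against 202 and 216 (0.67, SE 0.15, adjusted p by limma 0.0129). Psmc6, Psmd1 and Psmd6 rose by 0.43 to 0.55.

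In the core particle fewer genes were called. All 7 alpha genes and all 7 constitutive beta genes had changes above 0, with medians of 0.57 and 0.32. Psma6 alone was called, at 117 and 125 CPM in Q20 against 180.0 and 190.1 in Q111 (0.61, SE 0.16, adjusted p by limma 0.0251). None of the 7 constitutive beta genes was called by limma; 1 of them, Psmb6, had an adjusted p of 0.0833 (limma) with 202 and 188 CPM in Q20 and 301 and 301 in Q111.

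The alternative caps divided. Psme3, the nuclear activator PA28-gamma that works without ATP, was 84.3 and 87.7 CPM in Q20 and 228 and 178 in Q111 and rose most of all members (1.22, SE 0.38, adjusted p by limma 0.0458). Its other NPC libraries had 51.4 and 132 CPM in WT, 65.3 and 94.8 in KO, 71.8 and 83.5 in Q50, and 104 and 94.98 in Q92. Psme1, an interferon-inducible subunit of the cytosolic PA28 activator, fell by 0.65 (SE 0.15, adjusted p by limma 0.016), from 62.4 and 54.6 CPM in Q20 to 39.7 and 34.4 in Q111. Q20 was the high group for Psme1: WT had 44.4 and 46.3 CPM, KO 43.0 and 35.7, Q50 40.0 and 39.7, and Q92 41.5 and 38.1. Psme2, the partner of Psme1, was 57.5 and 49.2 CPM in Q20 and 50.8 and 50.0 in Q111, within 39.2 to 60.7 in the other NPC libraries. Psme4, the PA200 activator of DNA repair and spermatogenesis, was 344 and 422 CPM in Q20 and 454 and 469 in Q111; WT had 314 and 298, KO 274 and 371, Q50 244 and 235, and Q92 429.9 and 421.

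The inhibitor Psmf1 rose from 31.1 and 31.8 CPM to 49.3 and 45.1 (0.57, SE 0.15, adjusted p by limma 0.0274), and its highest values outside Q111 were those of WT, 44.2 and 38.0. Of the cap assembly chaperones, Psmd9 was called (0.55, SE 0.16, adjusted p by limma 0.038). All 4 core chaperones Psmg1 to Psmg4 had changes above 0 and none was called by limma.

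**Figure D2:**
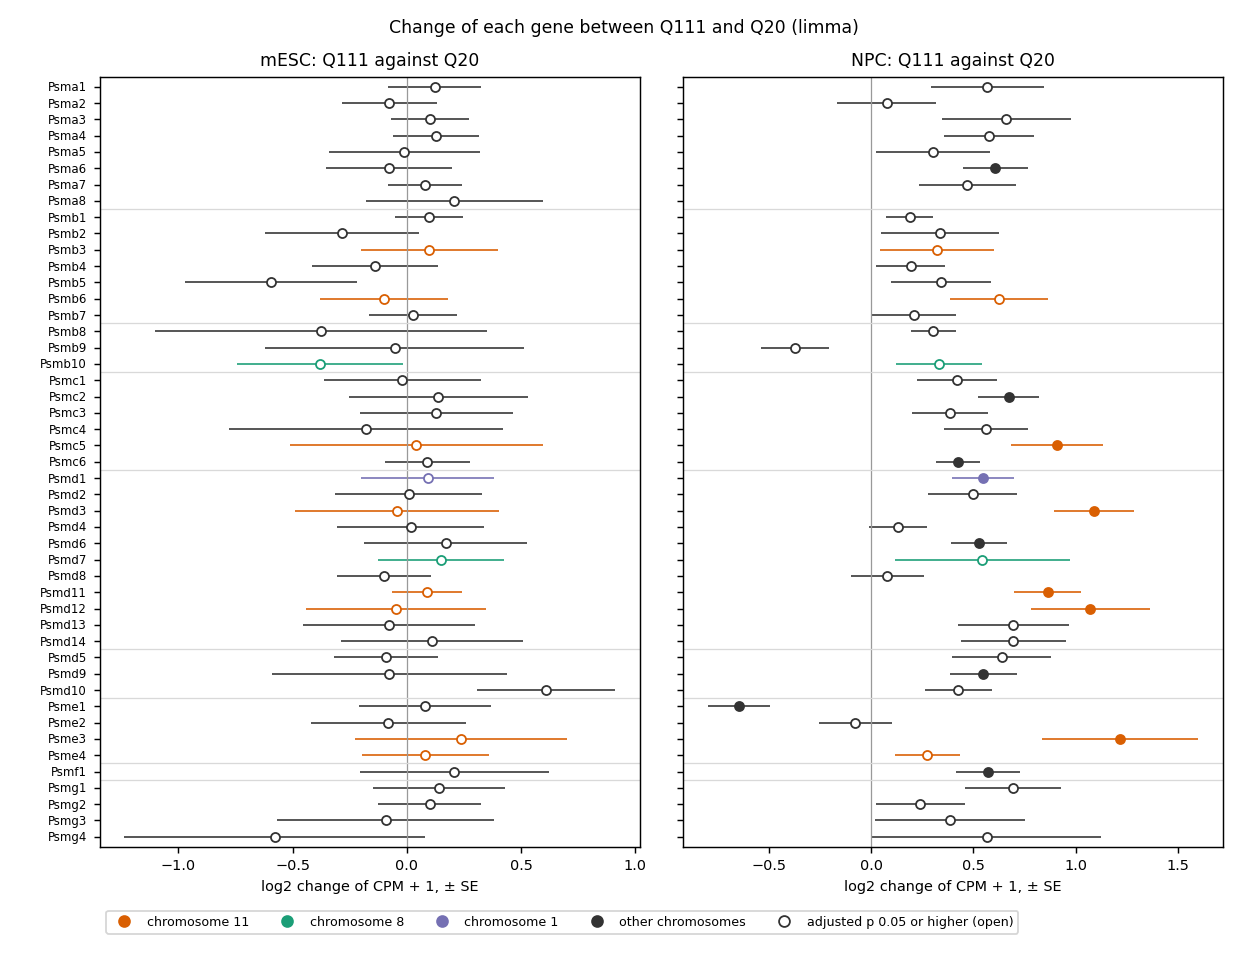
Log2 change of CPM + 1 between Q111 and Q20 (horizontal axis) with its standard error for each proteasome gene (rows, ordered by role), in mESC on the left and NPC on the right. Filled points have a limma adjusted p under 0.05, colours mark chromosomes 11, 8 and 1; in NPC 13 points are filled and 43 of 46 lie above 0, and in mESC none is filled.

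This comparison had limits. Leaving out any 1 of its 4 libraries, Q20 replicate 1 or 2 or Q111 replicate 1 or 2, left 1, 4, 3 or 1 members called, each among the 13, and with WT in place of Q20 as the reference 8 members were called (16.6% of all genes), 5 of them among the 13. Of the 43 members outside the immune group, 21 had both Q111 libraries above both WT libraries, where 31.4% of all genes did, and 13 had neither Q111 library above WT replicate 2, where 42.6% of all genes did. With quantile normalization the median change of the 46 members was 0.29 and 6 were called. The lines also differed in other cells' markers: the 4 astrocyte markers summed to 1551 and 1376 CPM in Q20 and 110.9 and 106 in Q111, and the 8 feeder fibroblast markers to 311 and 252 against 3.03 and 2.69. The part of these differences in the proteasome change was not tested.

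In mESC the same comparison gave no call: 0 of 47 members by limma and 0 by edgeR, where limma called 0% of all 13916 genes. An unadjusted p by limma under 0.05 was reached by 0 members and 374 genes in all. The median change was 0.03 against 0.02 over all genes. The members with the smallest p were Psmd10, an assembly chaperone also known as gankyrin, at 18.2 and 21.4 CPM in Q20 and 33.5 and 28.1 in Q111 (0.61, SE 0.30), and Psmb5 (-0.60, SE 0.38), whose Q20 replicate 2 stood apart at 108 CPM against 40.9 to 65.9 in the other 11 mESC libraries.

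Promoters were searched because NRF1 acts on subunit genes through a short antioxidant element. For 40 of the 48 subunit, activator and assembly genes RefSeq gave a start site on GRCm38.p6, and the 250 bases before it were searched on both strands. The element TGACNNNGC was in 5 of 40 (12.5%), against 11.5% of 27025 genes. Matches to the interferon regulatory element were found in 3 (7.5% against 3.46%), to the gamma-activated site TTCNNNGAA in 2 (5% against 8.13%) and to CCAAT in 14 (35% against 37.5%). No matches of different motifs overlapped. The 5 members with the NRF1 letters are shown because they hold that element; capitals mark the match, which in Psmc6 and Psmd12 reads on the opposite strand.
Psmb5 (chr14:54618024-54618052, minus strand, match first base 47 before the start): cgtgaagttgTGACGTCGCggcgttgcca
Psmb6 (chr11:70525257-70525356, plus strand, 9 before the start): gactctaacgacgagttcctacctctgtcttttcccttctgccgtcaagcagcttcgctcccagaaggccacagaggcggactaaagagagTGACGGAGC
Psmc6 (chr14:45329574-45329673, plus strand, 227 before the start): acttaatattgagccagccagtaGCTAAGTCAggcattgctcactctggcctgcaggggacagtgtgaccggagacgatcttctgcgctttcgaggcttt
Psmd9 (chr5:123228090-123228189, plus strand, 31 before the start): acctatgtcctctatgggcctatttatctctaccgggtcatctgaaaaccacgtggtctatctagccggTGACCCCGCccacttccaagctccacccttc
Psmd12 (chr11:107479278-107479377, plus strand, 247 before the start): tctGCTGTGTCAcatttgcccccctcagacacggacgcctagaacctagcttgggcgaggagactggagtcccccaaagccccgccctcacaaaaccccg
Members without an entry were Psma8, Psmb1, Psmb2, Psmb7, Psmc3, Psmd3, Psmd7 and Psmg2.

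Members on chromosome 11 had larger changes than members elsewhere. Of the members, 8 lie on chromosome 11 (Psmb3, Psmb6, Psmc5, Psmd3, Psmd11, Psmd12, Psme3 and Psme4), Psmb10 and Psmd7 on chromosome 8, and Psmd1 on chromosome 1, and these are chromosomes whose genes moved together between lines. Psmd3 spans chr11:98682554-98695979 on the plus strand, Psmd11 chr11:80428615-80473248, Psmc5 chr11:106256154-106263120, Psmd12 chr11:107479484-107504362 and Psme3 chr11:101316213-101323537, all on GRCm38 by GENCODE M21. In NPC the 1069 tested genes of chromosome 11 had a median change of 0.18 between Q111 and Q20, against 0.01 for the 10653 genes outside chromosomes 1, 8 and 11. The 8 members on chromosome 11 had a median of 0.89, all 8 above 0 and 5 called, and the 35 members outside those 3 chromosomes a median of 0.43, 32 above 0 and 6 called higher. After the median change of each gene's chromosome was taken off, 13 members were called (27.5% of all genes), 12 of them among the 13 called before. Copy number was not measured, and the part of chromosome dosage in these values was not tested.

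The same chromosomes moved in other comparisons. Between Q20 and WT mESC, 83.3% of the 1152 tested chromosome 11 genes were higher, with a median of 0.39, and the median of the 746 chromosome 8 genes was 0.41, against -0.09 elsewhere; all 8 chromosome 11 members were higher, with a median of 0.47. Between Q50 and Q20 the chromosome 11 median was -0.32 in mESC and -0.29 in NPC, and the chromosome 1 median 0.35 and 0.53. In the mESC comparison 78.9% of the 517 tested chromosome 14 genes were higher, with a median of 0.29, and 2 of the 5 members there (Psmb5, Psmc6, Psmd6, Psme1 and Psme2) were above 0, with a median of -0.17. In Q92 against Q20 mESC the chromosome 11 median was -0.33, with 0 of the 8 members above 0.

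**Figure D3:**
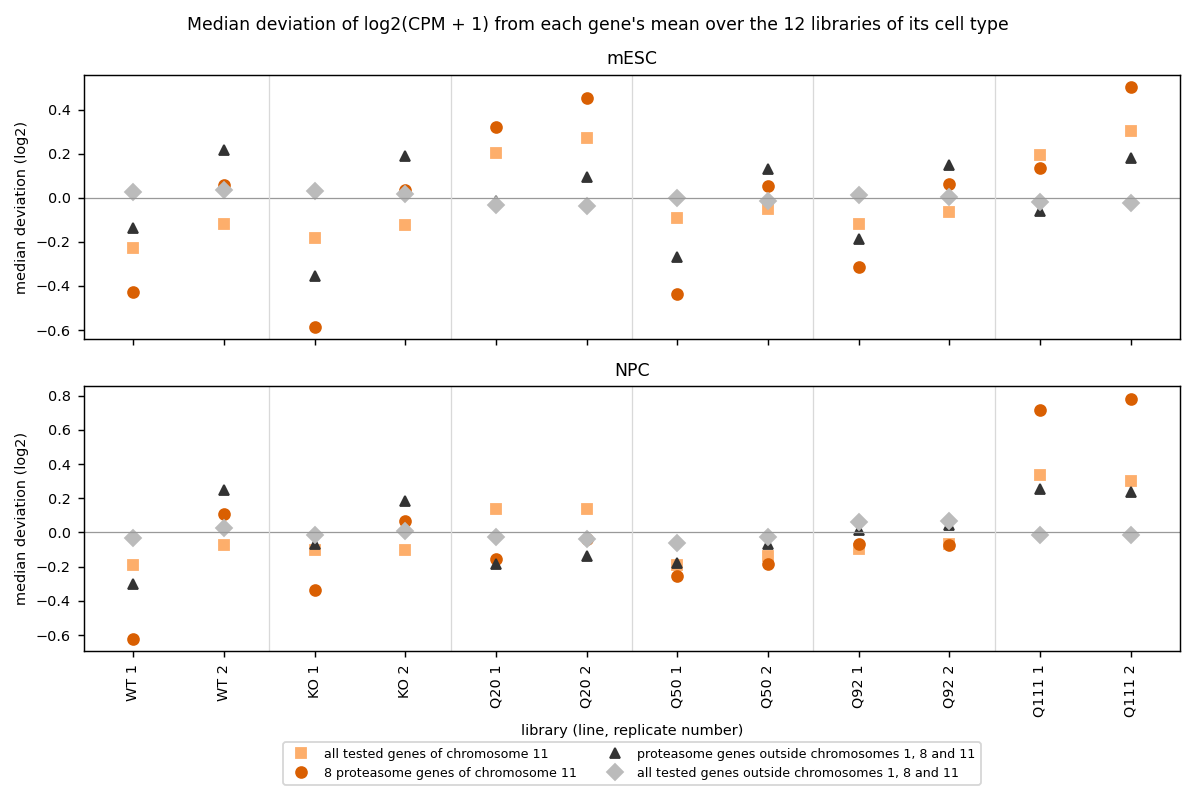
Median deviation from each gene's mean (log2, vertical axis) in each library (horizontal axis), for all tested genes of chromosome 11, the 8 proteasome genes of chromosome 11, the proteasome genes outside chromosomes 1, 8 and 11, and all other tested genes. The chromosome 11 members reach 0.71 and 0.78 in the Q111 NPC libraries, where all chromosome 11 genes have 0.34 and 0.30 and members elsewhere 0.25 and 0.24.

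Over the 4 knock-in lengths, the slope of log2(CPM + 1) on repeat number was computed from 8 libraries per cell type and is given over the 91 repeats from Q20 to Q111. In NPC 14 of 46 members rose and none fell by limma, 30.4% against 12% of all genes called upward, 10.1% downward and 22% either way. At an unadjusted p by limma under 0.05 there were 26 of 46 members, and 4874 of all 13206 genes. The median slope was 0.43 against 0.04 over all genes, and 41 of 46 were above 0. The 5 members below 0 were the immune subunits Psmb8, Psmb9 and Psmb10 and the interferon-inducible activators Psme1 and Psme2, none of them called by limma. Psme1 had the smallest p of these (-0.55, SE 0.18, adjusted p by limma 0.0589). With edgeR it was called lower (-0.63, adjusted p by edgeR 0.0395). The slope calls held 5 of 7 alpha genes, 2 of 6 ATPases, 4 of 11 non-ATPase cap genes, Psmd9, Psme3 and Psmg1, and 0 of 7 constitutive beta genes. Psma6 had the smallest p, with means of 121 ± 6.0 CPM (SD, n = 2) in Q20, 132 ± 11.8 in Q50, 162 ± 9.7 in Q92 and 185 ± 7.1 in Q111 (slope 0.60, SE 0.11, adjusted p by limma 0.00894). Psma3, of the same ring, went from 118 and 127 CPM in Q20 through 158 and 164 in Q50 and 183 and 168 in Q92 to 183 and 206 in Q111 (0.60, SE 0.13, adjusted p by limma 0.0134). Psmd3 had a slope of 0.95 (SE 0.18, adjusted p by limma 0.0101), and Psmg1, a chaperone that starts the alpha ring, of 0.74 (SE 0.17, adjusted p by limma 0.0193). Psmd3 was 151 and 151 CPM in Q20, 180.2 and 168 in Q50, 199 and 204 in Q92 and 311 and 334 in Q111. The line means of Psma6, Psma3 and Psmd3 thus rose at every step, and those of Psmd3 most between Q92 and Q111.

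Of the 14 called slopes, 7 had line means that rose at every step and 14 had their highest mean in Q111. A called rising slope itself favours such line means, so these counts are not separate evidence. Of all 46 tested members, 13 rose at every step and 37 had their highest mean in Q111. The shares over all genes are not given. Without the Q111 line 1 member was called, and with 1 mean value per line 0 were called. Leaving out Q20 replicate 1 or 2 left 2 or 5 called, and leaving out Q111 replicate 1 or 2 left 3 each. With quantile normalization the median slope was 0.20 and 4 were called. Along the lines Q20, Q50, Q92 and Q111 the astrocyte markers summed to 1551 and 1376, 1094 and 930.1, 329 and 332, and 110.9 and 106 CPM. Most of each sum was Aldoc, at 1244 and 1091 CPM in Q20 and 102 and 97.4 in Q111. Aqp4 also fell along the lines, but Gfap and S100b did not fall steadily. Gfap was 43.1 and 27.8, 72.9 and 35.3, 0.182 and 0.0938, and 2.82 and 2.44 CPM. S100b was 11.7 and 9.27, 21.9 and 15.7, 0.561 and 2.02, and 3.09 and 2.85 CPM. The feeder fibroblast markers summed to 311 and 252, 895 and 917, 6.60 and 7.69, and 3.03 and 2.69 CPM. Their part in the slopes was not tested. Length and line are the same factor here, with 4 lines, so they cannot be told apart.

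In mESC 0 of 47 members were called in the slope by limma and 0 by edgeR, where limma called 0% of all genes. An unadjusted p by limma under 0.05 was reached by 0 members and 358 of all 13916 genes. The median slope was 0.01. A test of the difference in slope, NPC minus mESC, over the 16 knock-in libraries called 0 of 46 members by limma and 0 by edgeR. Of all 12321 genes limma called 4.86%, 2.7% higher and 2.16% lower. An unadjusted p by limma under 0.05 was reached by 6 of 46 members and 2521 of all genes. The difference was above 0 for 44 of 46 members. The smallest adjusted p values were those of Psmb5 (0.97, SE 0.35, adjusted p by limma 0.129) and Psmd3 (1.01, SE 0.38, adjusted p by limma 0.143). With the replicate number as a block (the numbers pair libraries in mESC but not in NPC) both were called (adjusted p by limma 0.0454 and 0.0194), where 8.16% of all genes were.

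The immune subunits Psmb8 and Psmb10 had their highest mESC means in Q20 and Q111. Psmb8 was 1.203 and 0.212 CPM in WT, 0.371 and 0.119 in KO, 21.6 and 7.71 in Q20, 5.92 and 3.08 in Q50, 2.58 and 1.17 in Q92, and 21.8 and 4.14 in Q111 mESC. WT and KO were low, Q20 and Q111 high, and in every genotype replicate 1 was the higher library. Psmb10, the counterpart of Psmb7, was 12.6 and 12.7 CPM in WT, 8.76 and 15.5 in KO, 72.6 and 59.9 in Q20, 31.3 and 36.3 in Q50, 21.2 and 31.0 in Q92, and 68.4 and 37.1 in Q111. All 8 knock-in libraries thus exceeded the 4 WT and KO libraries for Psmb10. Psmb9 was 3.97 and 1.97 CPM in WT, 3.19 and 2.39 in KO, 7.47 and 3.44 in Q20, 4.23 and 2.57 in Q50, 3.71 and 1.09 in Q92, and 8.20 and 2.79 in Q111, so that groups overlapped.

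Psmb10 was the only member called between Q20 and WT mESC, with 66.3 ± 9.0 CPM (SD, n = 2) against 12.6 ± 0.084 and a rise of 2.30 (SE 0.36, adjusted p by limma 0.0491); 0.323% of all genes were called, 0.259% higher and 0.0647% lower. It lies at chr8:105935735-105938444 on the minus strand of GRCm38. With the chromosome median taken off the adjusted p was 0.0843, by edgeR 0.0693, and without any 1 of the 4 libraries 0.158 to 0.218. Psmd11 had the next smallest p (0.68, SE 0.15, adjusted p by limma 0.115). In mESC the replicate numbers pair the libraries, and with the replicate block, which called 10.6% of all genes, 5 members rose: Psmb8 (3.10, SE 0.40, adjusted p by limma 0.00816), Psmb10 (adjusted p 0.0131), Psmd11 (0.0141), Psme2 (1.16, SE 0.20, adjusted p 0.0176) and Psmb6 (0.77, SE 0.14, adjusted p 0.0179).

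Psme1 and Psme2, the interferon-inducible cap, had their highest mESC means in Q20 and Q111. Psme2 was 51.2 and 27.5 CPM in WT, 32.2 and 23.6 in KO, 101 and 71.0 in Q20, 58.0 and 58.1 in Q50, 38.5 and 33.0 in Q92, and 97.4 and 65.9 in Q111. Psme1 was 59.7 and 37.3 CPM in WT, 40.7 and 40.8 in KO, 84.4 and 58.8 in Q20, 65.4 and 59.6 in Q50, 47.1 and 37.2 in Q92, and 86.7 and 64.2 in Q111. Psme3 ran from 68.7 to 225 CPM, with 68.7 and 116 in WT, 78.0 and 122 in KO, 116 and 139 in Q20, 86.1 and 121 in Q50, 91.9 and 171 in Q92, and 99.6 and 225 in Q111, each time higher in replicate 2. Psme4 was 669 and 541 CPM in WT, 718 and 551 in KO, 902 and 533 in Q20, 673 and 568 in Q50, 675 and 509 in Q92, and 786 and 683 in Q111. Of 19 interferon and antigen presentation genes, 0 were called in any of the 5 mESC pairs or the mESC slope by limma. The share of all genes called in these tests was also small, 0% to 0.323%. The median change of the 19 genes was 0.33 between Q20 and WT, against -0.04 over all genes. Between Q92 and Q20 it was -0.42 against 0.01, and between Q111 and Q20 0.01 against 0.02.

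Markers of other cells were set beside these values. The feeder fibroblast markers in the mESC table, 7 of 8, summed to 12.4 to 18.0 CPM in WT and KO and to 47.7 to 71.0 in the 8 knock-in libraries. Col1a1, Col1a2, Dcn and Postn were above WT and KO in all 8, Col1a2 at 17.5 to 31.4 CPM against 0.808 to 2.60. Thy1, Pdgfrb and Col3a1 overlapped. Thy1 was 3.66 to 11.3 CPM in WT and KO and 4.37 to 12.3 in the knock-in libraries. Pdgfrb was 3.58 to 6.38 and 3.24 to 8.05 CPM. The blood cell markers summed to 6.85 to 26.9 CPM in mESC, of which Cd68 made up 6.51 to 25.8, and to 2.66 to 5.86 in NPC; Ptprc, the defining marker of blood cells, was at most 0.405 CPM in mESC and 0.193 in NPC. The part of feeder or blood cell RNA in the immune subunit values was not tested.

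In NPC Psmb8 was at the edge of detection: 0.193 and 0.110 CPM in WT, 0.847 and 0.759 in KO, 0.957 and 1.08 in Q20, 1.32 and 1.12 in Q50, 0.149 and 0.125 in Q92, and 1.54 and 1.45 in Q111. These are 8 to 114 recovered reads, and Psmb8 passed the filter through 5 libraries of the higher lines. For genes this low, the filter favours those that differ between lines. WT and Q92 were low, and every library of the other 4 lines lay above theirs. Psmb9 was 0.455 and 0.491 CPM in WT, 0.374 and 0.812 in KO, 1.23 and 1.201 in Q20, 1.78 and 1.35 in Q50, 0.363 and 0.610 in Q92, and 0.636 and 0.794 in Q111, and passed through the 4 libraries of Q20 and Q50. Psmb10 was 11.5 and 16.9 CPM in WT, 16.6 and 13.6 in KO, 16.2 and 17.6 in Q20, 17.6 and 17.8 in Q50, 9.44 and 10.1 in Q92, and 22.5 and 20.6 in Q111.

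Q92 NPC had the lowest Psmb10 of all lines, while Psmb8 and Psmb9 were about as low in WT as in Q92. Against Q20, 4 of 46 members fell and none rose by limma, 8.7% against 25.8% of all genes called (9.88% higher, 15.9% lower): Psmb8 (-0.83, SE 0.11, adjusted p 0.000957), Psmb10 (-0.73, SE 0.21, adjusted p 0.0354), Psmb9 (-0.58, SE 0.16, adjusted p 0.034) and Psme1 (-0.54, SE 0.15, adjusted p 0.0321). Psmb8 and Psmb9 had passed the filter only through higher lines; without any filter their adjusted p by limma were 0.000206 and 0.0238. Of the 19 interferon and antigen presentation genes 7 fell and 1 rose in this comparison; Ifih1, a sensor of viral RNA, fell by 3.16 (SE 0.46), Tapbp, which loads peptides on class I molecules, by 1.54 (SE 0.35), and Ifit1, an interferon-induced gene, by 1.34 (SE 0.22). The receptor gene Ifnar1 rose by 0.54 (SE 0.14). Against WT instead of Q20 no member was called in Q92 by limma, and leaving out any 1 of the 4 libraries left 1. The feeder fibroblast sums were 6.60 and 7.69 CPM in Q92 and 311 and 252 in Q20, and their part was not tested.

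Between Q20 and WT NPC, Psmb8 (0.81, SE 0.11, adjusted p by limma 0.00143) and Psmb9 (0.59, SE 0.16, adjusted p by limma 0.0482) rose, 2 of 46 members, where 14.5% of all genes were called, 9.97% higher and 4.57% lower. No WT library reached 1 CPM for either gene, so both passed the filter only through higher lines; without any filter their adjusted p by limma were 0.000296 and 0.0332. The linear folds of the means were 6.73 and 2.57. The call of Psmb9 was lost in 10 of 12 alternatives, among them edgeR (adjusted p 0.0874). Of the interferon and antigen presentation genes 4 rose by limma, among them Ifih1 (1.89, SE 0.46), the class I gene H2-D1 (1.52, SE 0.18) and Ifit1 (1.28, SE 0.22), and Ifnar1 fell by 0.52 (SE 0.14). The feeder fibroblast sums were 38.0 and 29.4 CPM in WT and 311 and 252 in Q20, and their part was not tested. Of these markers only Thy1 overlapped, at 6.81 and 1.91 CPM in WT and 4.04 and 4.55 in Q20. Leaving out WT replicate 1 or 2 gave 9 or 4 called members, and leaving out Q20 replicate 1 or 2 gave 1 each.

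KO against WT gave 1 call in NPC and none in mESC. In NPC Psmb8 was 0.803 ± 0.063 CPM (SD, n = 2) in KO and 0.152 ± 0.058 in WT, a rise of 0.65 (SE 0.11, adjusted p by limma 0.0316), where 1.42% of all genes were called, 0.878% higher and 0.545% lower. Psmb8 passed the filter only through other lines; without any filter its adjusted p by limma was 0.0122. The call was lost without KO replicate 1 or 2 or WT replicate 1 (adjusted p 0.0547 to 0.109), and without WT replicate 2 a total of 6 members were called. Psmf1 had the next smallest p, at 24.2 and 24.4 CPM in KO against 44.2 and 38.0 in WT (-0.73, SE 0.15, adjusted p by limma 0.0743). In mESC 0 of 47 members were called by limma and 0 by edgeR, where limma called 0.0144% of all genes. An unadjusted p by limma under 0.05 was reached by 0 members and 553 of all 13916 genes. The smallest p there were those of Psma4 (-0.28, SE 0.19) and Psme2 (-0.43, SE 0.34).

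The constitutive cutting subunits varied less than their immune counterparts. In mESC Psmb5 was 47.8 and 64.8 CPM in WT, 40.9 and 60.6 in KO, 48.9 and 108 in Q20, 47.8 and 65.9 in Q50, 43.9 and 51.8 in Q92, and 46.0 and 49.7 in Q111. Psmb6 was 174 and 266 CPM in WT, 169 and 249 in KO, 334 and 404 in Q20, 181 and 256 in Q50, 203 and 239.7 in Q92, and 325 and 362 in Q111. Psmb6, on chromosome 11, was thus above all other mESC libraries in Q20 and Q111. Psmb7 stayed between 229 and 335 CPM, with 260.1 and 335 in WT, 236 and 263 in KO, 315 and 285 in Q20, 229 and 306 in Q50, 248 and 258 in Q92, and 308 and 302 in Q111.

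In NPC Psmb5 was 23.1 and 39.2 CPM in WT, 27.1 and 35.9 in KO, 27.8 and 28.9 in Q20, 26.9 and 28.6 in Q50, 32.7 and 34.4 in Q92, and 37.6 and 34.8 in Q111. Psmb6 was 119 and 211 CPM in WT, 153 and 189 in KO, 202 and 188 in Q20, 157 and 166 in Q50, 148 and 168 in Q92, and 301 and 301 in Q111. Its Q111 libraries stood above the other 10. Psmb7 was 178 and 259 CPM in WT, 198 and 237 in KO, 170.3 and 216 in Q20, 189.7 and 200.4 in Q50, 224 and 216 in Q92, and 246 and 199.8 in Q111.

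The ratio of an immune to its constitutive subunit within a library does not depend on how the tables were scaled and was compared between cell types over the 6 lines. Psmb8 was 0.197% to 47.4% of Psmb5 in mESC, with a median of 5.28%, and 0.282% to 4.90% in NPC, with a median of 3.28%. Psmb9 was 0.455% to 2.53% of Psmb6 in mESC and 0.211% to 1.14% in NPC. Psmb10 was 3.71% to 23.1% of Psmb7 in mESC and 4.22% to 10.3% in NPC. The Psmb9 ratio was lower in NPC in 6 of 6 lines, by a mean of -1.69 (log2, SD 0.70, n = 6 lines; exact two-sided sign-flip permutation p = 0.03125, the smallest 6 lines allow, adjusted over 3 ratios 0.0938). The Psmb8 ratio was lower in 5 of 6 lines (-1.14, SD 2.05; exact permutation p = 0.219, adjusted 0.25) and the Psmb10 ratio in 4 of 6 (-0.43, SD 0.84; exact permutation p = 0.25, adjusted 0.25). After adjustment none of the 3 differences passed 0.05. Psmb9 overlaps the antigen transporter gene Tap1 on the other strand, Psmb7 overlaps Nek6 there, and Psmb8, Psmb10 and Psmd3 overlap predicted genes there. Other members have such neighbours too, among them Psme1 with Emc9 and Psmd1 with Htr2b. Whether counting used strand is not given in the sources used here, so reads of such neighbours cannot be told apart.

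**Figure D4:**
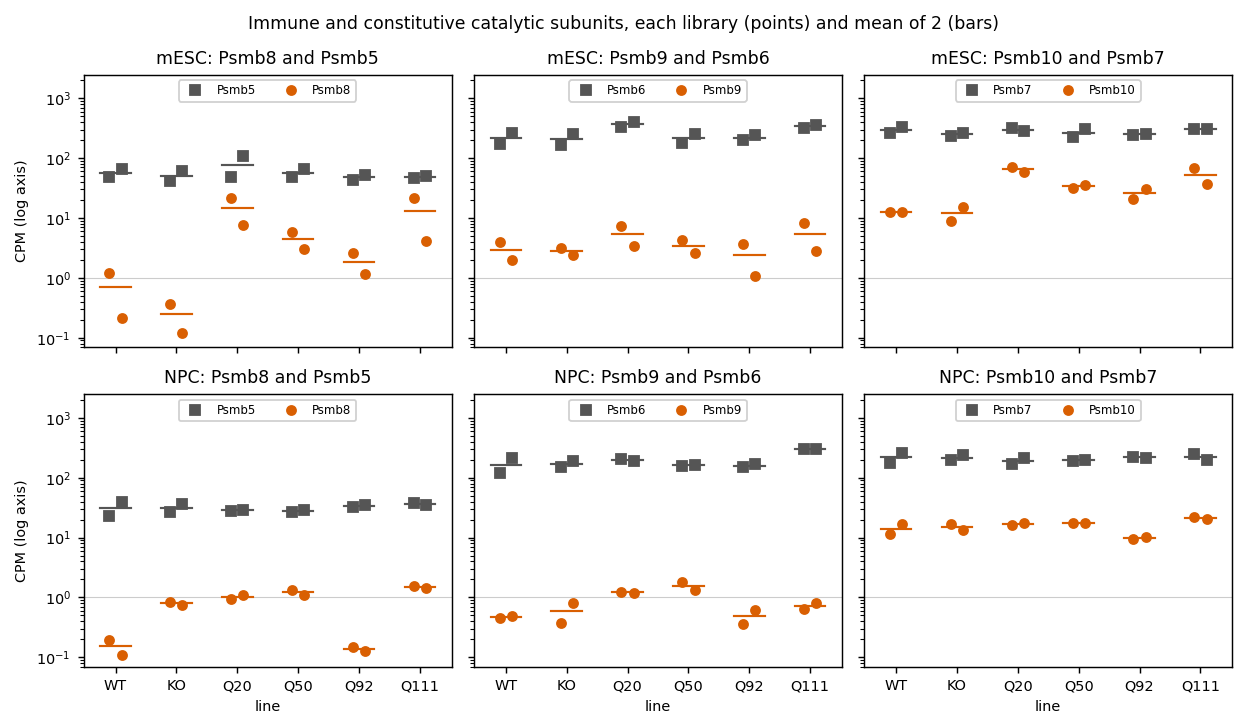
Level in CPM (vertical log axis) of each immune catalytic subunit (circles) and the constitutive subunit it replaces (squares) in each library, by line (horizontal axis), with mESC above and NPC below; short bars are means of 2 libraries. In mESC Psmb8 runs from 0.119 to 21.8 CPM with Q20 and Q111 high, while in NPC it stays at or under 1.54 CPM with WT and Q92 low.

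Q50 NPC differed from Q20 in single members. Psmd1, the large scaffold of the cap base, was 349.9 and 356 CPM in Q20 and 619 and 655 in Q50 (0.85, SE 0.15, adjusted p by limma 0.00596). Psme4 fell by 0.67 (SE 0.16, adjusted p by limma 0.021) and Psme1 by 0.54 (SE 0.15, adjusted p by limma 0.0403). These were 3 of 46 members, 6.52% against 18.8% of all genes, 8.05% higher and 10.7% lower. With WT in place of Q20 as the reference, none of these 3 was called by limma. Psmd1 lies on chromosome 1, where the median change was 0.53 and 78% of 776 tested genes were higher, and Psme4 on chromosome 11, where the median was -0.29. With the chromosome median taken off none of the 3 was called by limma (0.35 and adjusted p 0.146 for Psmd1, -0.36 and 0.192 for Psme4, -0.52 and 0.0579 for Psme1), and 0 members were called in all. Leaving out Q20 replicate 2, Q50 replicate 1 or Q50 replicate 2 left 1 member called.

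In mESC neither Q50 nor Q92 gave a call against Q20: 0 of 47 members each by limma and 0 by edgeR, where limma called 0.00719% of all genes in each. An unadjusted p by limma under 0.05 was reached by 4 and 6 of 47 members, and by 887 and 747 of all 13916 genes. For Q50 the smallest p were those of Psmb6 (-0.77, SE 0.28) and Psmd11 (-0.41, SE 0.15), both on chromosome 11. For Q92 they were Psmb10 (-1.33, SE 0.36) and Psme2 (-1.23, SE 0.34), with adjusted p by limma of 0.595 and 0.603. With the replicate block, as the numbers pair the mESC libraries, these 2 had adjusted p by limma of 0.141 and 0.058. For Psmb6 and Psmd11 in Q50 they were 0.05002 and 0.124 with the block. It called 0 members in either comparison.

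Genes that work with the proteasome were tested in the same comparisons. Of 24 partners and regulators in the NPC table, 7 rose and none fell between Q111 and Q20 by limma, where 12.2% of all genes rose and 28.3% were called either way; their median change was 0.54. Nfe2l2, which encodes NRF2 and drives antioxidant and some proteasome genes, rose by 1.42 (SE 0.31, adjusted p 0.012), the deubiquitinase gene Uchl5 of the cap by 1.27 (SE 0.41, adjusted p 0.048), and the cap-bound ubiquitin ligase gene Ube3c by 1.07 (SE 0.22, adjusted p 0.00922). Nfe2l1 was 220.0 and 189.6 CPM in Q20 and 197 and 213 in Q111, so that the groups overlapped (0.0042, SE 0.22, adjusted p by limma 0.99). In the NPC slope 9 of 24 rose, where 12% of all genes did, among them Pomp, the chaperone that matures the core (0.47, SE 0.11, adjusted p 0.0232), and Ddi2, the protease that activates NRF1 (0.85, SE 0.21, adjusted p 0.0229). In Q92 against Q20, 5 rose and 1 fell, where 9.88% of all genes rose and 15.9% fell, and the one that fell was Nfe2l1 itself (-0.91, SE 0.22, adjusted p 0.0201). In mESC 0 of the 24 were called in any pair or the slope by limma, where 0% to 0.323% of all genes were. Of the 6 genes for ubiquitin and its activating enzymes, none was called between Q111 and Q20 NPC by limma; between Q50 and Q20 NPC the ribosomal fusion gene Rps27a fell by 1.201 (SE 0.13). Between Q20 and WT NPC Rps27a rose by 0.63 (SE 0.13).

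The 2 genes that carry a proteasome symbol without being subunits were counted apart. Psmc3ip, a partner of meiotic recombinases on chromosome 11, was 20.0 and 19.1 CPM in Q20 NPC and 56.7 and 55.3 in Q111, with 6.64 and 31.1 in WT, and rose in the NPC slope (1.44, SE 0.44, adjusted p by limma 0.0475). Psme2b, a near copy of Psme2 that also overlaps predicted genes on its own strand, was listed at 0 in Q20 replicate 2, Q92 replicate 2 and both Q111 libraries of mESC, at 0.460 in Q20 replicate 1, at 8.35 in Q92 replicate 1 and at 5.53 to 11.7 in the other 6. Its reads may be split with Psme2, and the value is uncertain.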

How the data were processed

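RNA was sequenced on a NextSeq 500 with paired-end reads, per the labels' protocols, and the submitters' processing notes name CASAVA 1.8, STAR and GRCm38.p6. The counting tool, strand use, annotation and gene filter are not given in the sources used here. The authors deposited 1 table per cell type of normalised CPM, a depth-scaled signal of read counts per gene. All values (100%) were whole multiples of 1 read per library within a tolerance of 0.05 reads, and TMM scaling of the recovered reads, recomputed with edgeR, gave the deposited values to within 8.9e-12 (relative). Both tables were scaled separately, and 0 columns were left unused. Every gene row has at least 7 reads in all.

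Groups came from the sample titles. Genes reaching 1 CPM in at least 2 libraries of a cell type were fitted with limma 3.58.1 (trend, R 4.3.3) on log2(CPM + 1) with a pseudocount of 1; the fold changes are on that scale, which understates the change of low genes. Means of all 6 genotypes shared 1 estimate of the spread, tests were two-sided, and Benjamini-Hochberg adjustment ran over all genes tested, 13916 in mESC, 13206 in NPC and 12321 in both. The slope used the 8 knock-in libraries of a cell type, each as 1 point, with no term for line. Quasi-likelihood tests of edgeR 4.0.16 on the recovered reads, other scalings, filters and references, a replicate block and leaving out single libraries were the alternatives; the scripts were tested on simulated data. The ratio test was an exact sign-flip permutation over 6 lines. Depth limits Psmb8 and Psmb9 in NPC most.

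Replicate numbers come from the titles. Deviations from group means correlated between same-numbered mESC libraries in all 15 pairs of groups (0.25 to 0.55), so the numbers were taken to pair them; in NPC they were not. In none of the 12 groups did the 2 replicates agree within counting noise. Members and lists were chosen with earlier results of these data known. Genes were named by rule: Psmb5 to Psmb10 and Psme1 to Psme4 throughout; per comparison at most 6 called members each way, or the 2 with the smallest p; for the slope 4 each way; and at most 3 called genes each way per pathway list. Other called members, the members below 0 in the slope, Pomp and Ddi2 were named after their values were seen. Positions and exon lengths are from GENCODE M21 on GRCm38, promoters from RefSeq on GRCm38.p6. Some genes of the ubiquitin list are not reported here.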

Additional observations from a re-analysis of the deposited data

How the results depend on the processing

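Alternatives changed the number of proteasome genes called. For most of these fits, here and above, the share of all genes called under the same fit is not given. A larger or smaller count of members can therefore not be set against a shift over all genes. In the NPC slope 14 were called; with the replicate block there were 4, with quantile normalization 4, with log2 of the repeat number 7, with 1 mean per line 0 and without the Q111 line, chosen after seeing the data, 1; leaving out 1 library gave 2 to 14. For Q111 against Q20 NPC (13 called) there were 8 with WT as the reference, 30 when only both groups' libraries were fitted, 6 with quantile normalization and 1 to 4 without 1 library. For Q92 against Q20 NPC (4 called) there were 0 with WT as the reference, 2 with a mean of at least 5 CPM, which drops low genes, 13 when only both groups' libraries were fitted, 1 with quantile normalization and 1 without any 1 library. For Q50 against Q20 NPC (3 called) there were 0 after chromosome centring and 6 when only both groups' libraries were fitted. With WT as the reference there were 3, Psmb8, Psmb9 and Psmf1, and 0 of them were among the 3 called against Q20. Psmb8 and Psmb9 had passed the filter only through higher lines, Q50 among them. For Q20 against WT NPC (2 called) there was 1 after chromosome centring, by edgeR, with a pseudocount of 0.5, with quantile normalization or with the replicate block, 0 with a mean of at least 5 CPM or when only both groups' libraries were fitted, and 1 to 9 without 1 library. For KO against WT NPC (1 called) there were 0 after chromosome centring, with a mean of at least 5 CPM or when only both groups' libraries were fitted, and 0 to 6 without 1 library. For Q20 against WT mESC (1 called) there were 0 after chromosome centring, by edgeR, when only both groups' libraries were fitted, with quantile normalization or without 1 library, and 5 with the replicate block. The slope difference (0 called) gave 2 with the replicate block and 0 to 1 without 1 library, the 1 without mESC Q20 replicate 1. Chromosome centring was chosen after seeing the data. Fits that leave out a library assume that the lone library varies like the other groups.

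Among the genes named in each comparison, signs reversed for Psme2 in KO against WT mESC without WT replicate 1 (0.0036; leaving out single libraries gave -0.87 to 0.0036), Psmd11 and Psmb10 in mESC Q50 and Q92 with WT as the reference (0.27 and 0.97), Psmd10 in the mESC slope without the Q111 line (-0.042), and Psmb9 in Q92 NPC with quantile normalization (0.0798) or WT as the reference (0.008124). The median change of the members crossed 0 over the alternatives in mESC Q111 (-0.088 to 0.13), Q92 (-0.31 to 0.065) and Q50 (-0.39 to 0.018) against Q20, the mESC slope (-0.10 to 0.073), KO against WT in mESC (-0.37 to 0.14) and NPC (-0.14 to 0.37), and Q20 against WT in mESC (-0.12 to 0.29) and NPC (-0.30 to 0.21). It also did in Q92 (-0.048 to 0.20) and Q50 (-0.072 to 0.066) against Q20 NPC. With quantile normalization it was 0.20 in the NPC slope (main value 0.43) and 0.29 in Q111 against Q20 NPC (0.48). Except where the alternative itself changes the reference or removes genes or libraries, the cause was not tested. In NPC, 3 of 15 pairs of groups had same-numbered libraries whose deviations correlated over 0.1 (-0.05 to 0.47), so the numbers were not taken to pair NPC libraries; WT and KO had the 0.47. The replicate block changed no other count of members by more than 1.5 times. NPC Psmb8 and Psmb9 rest on few reads, which limits their precision.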
